A study of Mus musculus with 10 samples.

Results

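The 35 genes described here serve the handling of glutathione, thioredoxin and NADPH, and include the transcription factor NRF2 and its inhibitor. They were chosen by name, with earlier results of these data known, from the 49568 genes of the deposited table. They fall into 8 branches by role: the factor and its sensor, quinone and haem enzymes, glutathione supply, glutathione peroxidases, soluble and membrane-bound glutathione transferases, the thioredoxin system, and the pentose phosphate pathway with other NADPH sources. Messenger RNA was sequenced from 10 cultured mouse pancreatic cancer cell lines, 1 library per line, with no treatment named. Of these, 5 are KPCAf/f (A1693, A1809, A1925, A2441, A3992) and 5 are KPC (A1081, A1620, A1625, A2031, A2032). KPC denotes a genetically engineered mouse that develops pancreatic cancer after Cre recombination, and both genotypes share it by name. KPCAf/f is not expanded in the labels, and is read here as KPC with floxed (conditionally deletable) alleles of Arid1a, the gene that the series title names. The sources used here give neither the exact alleles nor the Cre driver nor the age of the mice, and do not state that each line derives from a separate animal, so p-values cover the spread between lines only. The question is whether genes of these pathways differ between KPCAf/f and KPC lines.

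As background, NRF2, encoded by Nfe2l2, is held at low levels by Keap1, which directs it to degradation. When oxidants or electrophiles modify Keap1, NRF2 accumulates, pairs with small Maf proteins and binds antioxidant response elements near genes that make glutathione, regenerate it and conjugate it to toxic compounds. NRF2 is controlled largely through protein stability, so the level of its mRNA need not follow its activity. Glutathione is the main small thiol of the cell, and its reduction, like that of thioredoxin, consumes NADPH, much of which comes from the pentose phosphate pathway and malic enzyme.

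The promoters of 4 members are shown, from RefSeq on GRCm38.p6: a pair with higher levels in KPCAf/f lines, and a pair with lower mean levels there that holds a match to the NRF2 element. The second pair was picked for holding the match, so the contrast between the pairs does not relate motif to level. Each runs from 250 bases before to 50 bases after the annotated start. Gpx8 (chr13:113046339-113046638, minus strand) and Gstm2 (chr3:107986371-107986670, minus strand) had higher levels in every KPCAf/f line than in any KPC line. Gclm (chr3:122245307-122245606, plus strand) encodes a subunit of the enzyme that starts glutathione synthesis. Me1 (chr9:86695865-86696164, minus strand) encodes an NADPH-producing enzyme. Capitals mark a match on either strand to the core TGACNNNGC of the antioxidant response element or to the AP-1 type site TGACTCA, and a stretch such as TGACTCAGC holds both.
Gpx8: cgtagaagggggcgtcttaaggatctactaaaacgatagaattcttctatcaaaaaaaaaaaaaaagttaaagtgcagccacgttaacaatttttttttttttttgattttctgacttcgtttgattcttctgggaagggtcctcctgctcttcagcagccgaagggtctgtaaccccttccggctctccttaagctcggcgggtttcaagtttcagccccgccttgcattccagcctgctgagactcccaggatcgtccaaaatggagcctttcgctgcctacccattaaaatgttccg
Gstm2: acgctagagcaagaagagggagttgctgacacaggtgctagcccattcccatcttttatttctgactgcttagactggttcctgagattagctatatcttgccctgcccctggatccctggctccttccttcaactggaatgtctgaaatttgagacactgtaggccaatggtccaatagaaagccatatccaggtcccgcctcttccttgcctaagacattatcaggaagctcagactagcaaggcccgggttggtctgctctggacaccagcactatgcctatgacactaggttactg
Gclm: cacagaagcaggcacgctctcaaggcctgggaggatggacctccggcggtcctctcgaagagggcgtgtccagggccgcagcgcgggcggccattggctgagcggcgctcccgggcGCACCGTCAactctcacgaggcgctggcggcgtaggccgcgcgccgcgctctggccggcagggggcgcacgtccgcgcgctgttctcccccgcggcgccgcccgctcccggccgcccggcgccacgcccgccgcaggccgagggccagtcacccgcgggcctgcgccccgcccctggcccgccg
Me1: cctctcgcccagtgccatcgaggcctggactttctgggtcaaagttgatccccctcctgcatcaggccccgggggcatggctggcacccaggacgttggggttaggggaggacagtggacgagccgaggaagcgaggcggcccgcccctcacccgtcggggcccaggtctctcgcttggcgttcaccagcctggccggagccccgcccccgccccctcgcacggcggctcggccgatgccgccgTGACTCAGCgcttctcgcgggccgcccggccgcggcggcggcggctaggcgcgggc
Gpx8 and Gstm2 held neither motif in this window. The Gclm match reads GCACCGTCA, so that the core lies on the opposite strand, 134 bases before the start. The Me1 match begins 6 bases before the start, runs across it and joins both motifs. Shorter windows of 29 bases show the core in 4 other members, with the match in capitals, on the strand of the gene.
Prdx1: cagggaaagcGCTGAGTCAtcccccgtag
Txnrd1: ctggatttttGCTTTGTCAttctgacacg
G6pdx: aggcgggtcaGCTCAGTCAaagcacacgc
Srxn1: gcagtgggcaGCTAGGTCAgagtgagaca
These matches begin 133 bases before the start of Prdx1, 92 before that of Txnrd1, 57 before that of G6pdx and 28 after that of Srxn1. RefSeq promoters were at hand for 30 of the 35 members, and Hmox1, Gclc, Gsr, Gsta4 and Gstt2 had none. The core TGACNNNGC stood in 11 of the 30 (36.7%), namely Nfe2l2, Gclm, Gsta3, Gstm5, Mgst1, Txnrd1, Prdx1, Srxn1, G6pdx, Pgd and Me1, and in 3781 of 27025 promoters of all genes (14.0%). TGACTCA stood in 6 of the 30 (20%), namely Gstm5, Gstp1, Mgst2, Prdx1, Srxn1 and Me1, and in 1607 of all 27025 (5.95%). Gss, Gstp1, Mgst3 and Tkt, like Gclm and Me1 lower in KPCAf/f lines at an unadjusted limma p under 0.05, held no core match. Of the members with the core, Srxn1 and G6pdx had positive log2 fold changes of KPCAf/f over KPC (0.47 and 0.15), and the others negative ones. A match describes these letters and is not evidence of binding.

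Reads assigned to genes ranged from 15124888 to 20419830 per line. Values are normalized counts, meaning reads divided by the line's size factor, and a log2 fold change is KPCAf/f over KPC on log2(normalized count + 1), which understates the change of low genes. A gene was tested with limma when its normalized count reached 10 in at least 5 of the 10 lines, and is called changed at an adjusted p under 0.05. Arid1a itself averaged 1465 ± 221 in KPCAf/f lines and 2114 ± 844 in KPC lines (SD, n = 5 each), a log2 fold change of -0.42 (limma adjusted p = 0.563), with the lowest level of all in KPC line A1620. Without A1620 it was -0.72 (limma adjusted p = 0.0857), and after a correction for transcript length -0.83 (limma adjusted p = 0.0461). A library stood apart in each genotype. In KPC line A1620 levels declined with transcript length, at -0.65 log2 units per doubling of length, against 0.096 to 0.15 in KPCAf/f lines and -0.02 to 0.04 in the other KPC lines. KPCAf/f line A1693 had the lowest summed level of 6 epithelial markers, 5918, against 29729 to 132788 in the other KPCAf/f lines and 168345 to 366376 in KPC lines, and 2.70 normalized counts of the pancreatic factor Pdx1 and 10.8 of E-cadherin (Cdh1). Of the same lists it held 945 of Sox9, the highest of all lines, 2466 of Krt8 and 2808 of Krt18, the lowest of all lines for both keratins, so its markers are mixed. The 9 fibroblast and mesenchymal markers summed to 14627 to 88355 in KPCAf/f lines and 62.9 to 173 in KPC lines. Of the 9, 7 were higher in every KPCAf/f line, beside 2.84% of all genes tested, and 1, Fap, was under 10 in every line. Of these 7, Lum and Dcn were too low to be tested: Lum had 0.843 to 7.05 in KPCAf/f lines other than A1693, and Dcn 2.46 in A1809. Col1a2, Col3a1 and Pdgfrb reached at most 5.59, 4.47 and 1.325 in KPC lines. The filter thus admitted these genes through the group where they are high, and the share of all genes tested is not a like measure for the 7. In A1693, Col1a2 alone had 71337 of the 88355. The 4 Y-linked genes examined summed to 0 to 3.37 in KPCAf/f lines and 1521 to 3727 in KPC lines, so that genotype and Y-linked expression cannot be told apart in these lines. Xist, also sex-linked, had 5278 to 18451 in KPCAf/f lines other than A1693, 3.60 in A1693 and 1.96 to 6.63 in KPC lines. A1693 was thus low in both.

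Of the 35 members, 34 were tested, and 1 rose and 1 fell in KPCAf/f lines while 32 did not pass the test. Gpx8, an endoplasmic reticulum peroxidase, rose, and Gsr, the reductase that regenerates glutathione, fell. The 2 calls are 5.88% of the members tested, beside 1.75% of all 13089 genes (1.36% higher and 0.390% lower). By edgeR 0 rose and 1, Gsr, fell (1.31% of all genes were called), and limma-voom called Gpx8 and Gsr (0.802%). By DESeq2 Gpx8 and Gstm2 rose, and Gclm, Gsr, Gss, Gstp1 and Tkt fell (5.58%). At an unadjusted p under 0.05 there were 2 higher and 7 lower members, together 26.5%, beside 14.6% of all genes (8.39% higher and 6.26% lower). The lines of the genotypes did not overlap for 2 members higher in KPCAf/f, Gpx8 and Gstm2, and 3 lower, Gsr, Gclm and Tkt, together 14.7% beside 4.53% of all genes (2.84% higher and 1.69% lower). Fold changes were positive for 9 tested members and negative for 25, with a median of -0.38, beside -0.01 over all genes tested.

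**Figure D1:**
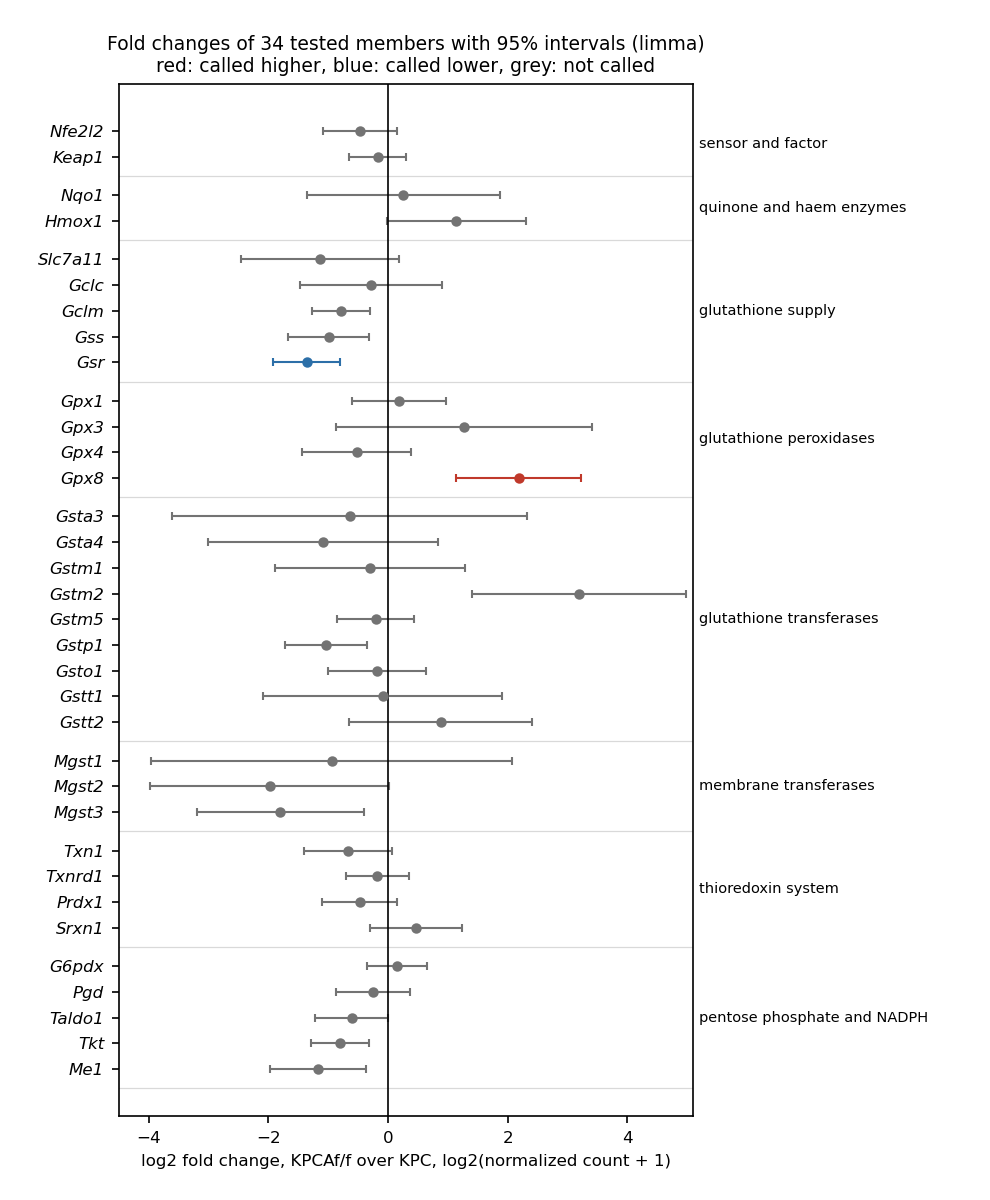
The log2 fold change of KPCAf/f over KPC lines is plotted for each of the 34 tested members by branch, with its 95% interval from limma over 5 lines per genotype. Gsr (blue, -1.36) and Gpx8 (red, 2.18) passed the test, and all 5 glutathione supply genes lie left of 0.

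In the glutathione supply branch 1 of 5 members, Gsr, fell, 0 rose and 4 did not pass the test. All 5 had negative fold changes, with a median of -0.99, although that of Gclc was 0.016 without KPC line A2032. These genes import cystine (Slc7a11), join it as cysteine to glutamate (Gclc and Gclm, the catalytic and modifier subunits of glutamate-cysteine ligase, the rate-limiting enzyme), add glycine (Gss, glutathione synthetase) and reduce oxidised glutathione with NADPH (Gsr, glutathione reductase). Gsr (chr8:33652523-33698163, plus strand, GRCm38) had 2557, 3831, 4688, 2665 and 3409.8 normalized counts in KPCAf/f lines, against 9954, 10853, 9181, 4975 and 9288 in the KPC lines, both in the line order given at the start and used throughout. Every KPCAf/f line lay under every KPC line, although A1925 came close to A2031, the lowest KPC line. The means were 3430.3 ± 879 in KPCAf/f lines and 8850.2 ± 2266 in KPC lines (SD, n = 5 each), a log2 fold change of -1.36 with an SE of 0.25 (limma adjusted p = 0.0206). On geometric means, Gsr was 2.56-fold lower in KPCAf/f lines. These are bulk libraries, in which fewer cells with a transcript and less of it per cell cannot be told apart. Without A1620 its log2 fold change was -1.27 (limma adjusted p = 0.0481). The gene was called under every other tool, scaling and filter tried, but not when 1 of several lines was left out: the adjusted p was 0.0517 without A1693, 0.0642 without A2441, 0.0541 without A1081, 0.0593 without A1625 and 0.0574 without A2032, and 0.0848 without both A1620 and A1693. Its fold change ranged from -1.55 to -1.26 with any 1 line left out.

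Gclm (chr3:122245557-122270732, plus strand) had 1576, 1811, 1996, 1523 and 2242 normalized counts in KPCAf/f lines, against 2405, 2286, 3601, 3269.9 and 4639 in KPC lines. The groups did not overlap, but the highest KPCAf/f line, A3992, lay just under the lowest KPC line, A1620. The means were 1830 ± 298 in KPCAf/f lines and 3241 ± 961 in KPC lines, with a log2 fold change of -0.79 and an SE of 0.22, which did not pass (limma adjusted p = 0.124). After a correction for transcript length in each line its limma adjusted p was 0.0203. Gclm also passed by DESeq2 (adjusted p = 0.0183) but under no other setting, with a limma adjusted p of 0.257 without A2441. Gss (chr2:155563181-155592810, minus strand) had 790.4, 715, 1451, 942 and 1377 in KPCAf/f lines, against 1155, 2843, 1892, 1746 and 3073 in KPC lines. Here the groups overlapped through KPC line A1081. Its log2 fold change was -0.99 with an SE of 0.31 (limma adjusted p = 0.159). Gss overlaps Acss2 on the opposite strand, whose level was not examined, so the reads of Gss are uncertain. Slc7a11 had 258, 889, 453, 658 and 229 normalized counts in KPCAf/f lines, against 396, 464, 1525, 830.3 and 3430.0 in KPC lines, with the top value in A2032 and a log2 fold change of -1.13 (limma adjusted p = 0.411). Gclc had 1250.4, 801, 2771, 1588 and 3442 in KPCAf/f lines, against 2379, 615, 2462, 2340.1 and 4799 in KPC lines, so that the lowest line was KPC line A1620 and the groups overlapped widely (log2 fold change -0.28, limma adjusted p = 0.822).

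**Figure D2:**
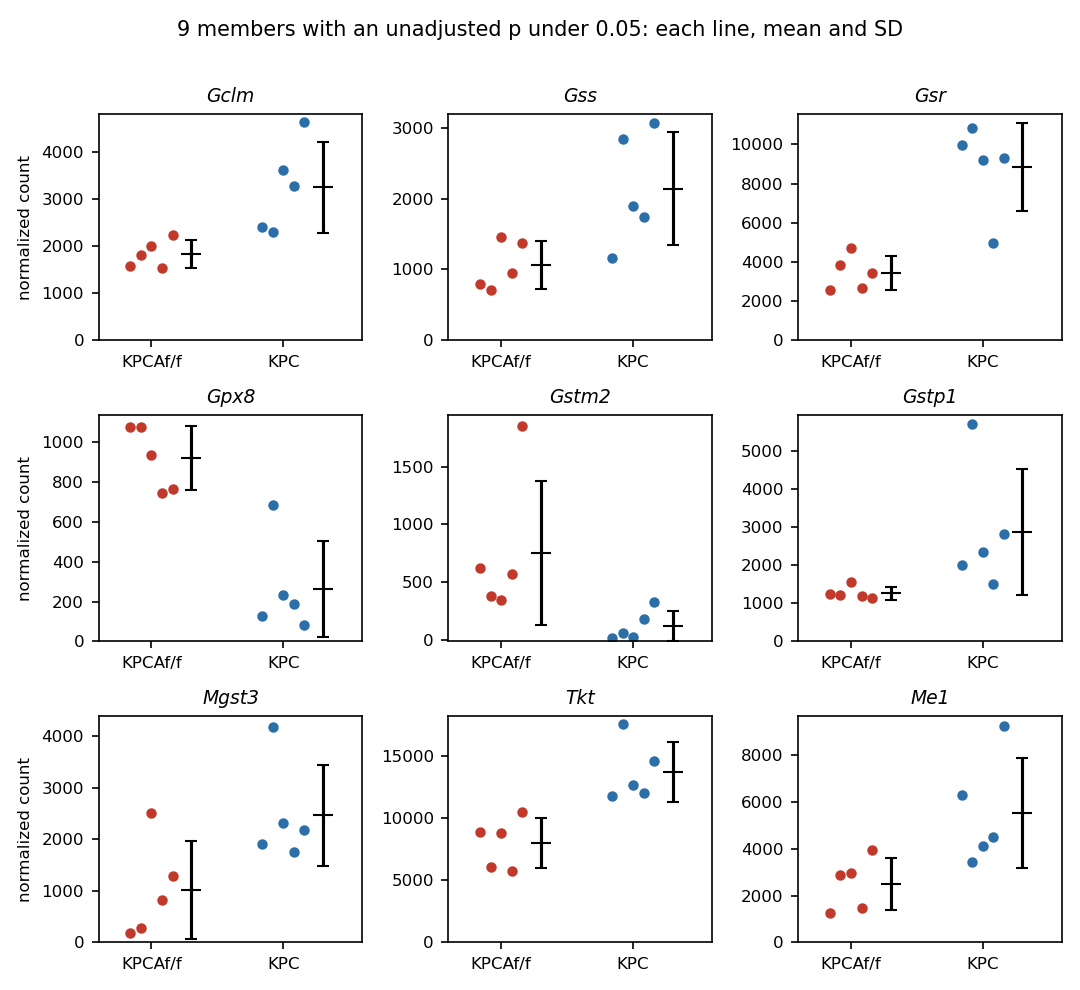
Normalized counts on linear axes are plotted for the 9 members with an unadjusted p under 0.05, each point a line, with the mean and SD of 5 lines beside it and KPCAf/f lines left of KPC lines. Gsr, Gclm and Tkt sit lower and Gpx8 and Gstm2 higher in every KPCAf/f line, while the other 4 overlap.

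Of the 5 glutathione peroxidases, 4 were tested, and 1 rose and 0 fell. These enzymes reduce hydrogen peroxide or lipid peroxides, with Gpx4 acting on membrane phospholipids, Gpx3 secreted and Gpx8 anchored in the endoplasmic reticulum, where it helps to clear peroxide made during protein folding. Gpx8 (chr13:113042753-113046410, minus strand) had 1078, 1079, 937, 745 and 765 normalized counts in KPCAf/f lines, against 129, 685, 233, 187 and 81.4 in KPC lines. All 5 KPCAf/f lines lay above all KPC lines, but A1620 reached 685, close to the lowest KPCAf/f line, and the other KPC lines stayed at or under 233. The means were 921 ± 162 in KPCAf/f lines and 263 ± 243 in KPC lines (SD, n = 5 each), a log2 fold change of 2.18 with an SE of 0.48 (limma adjusted p = 0.0461). On geometric means Gpx8 was 4.55-fold higher in KPCAf/f lines. Without A1620 the log2 fold change was 2.63 (limma adjusted p = 0.00317) and the KPC mean 157 ± 66.2 (n = 4), and without both A1620 and A1693 it was 2.57 (0.0082). The limma call was lost when any 1 of the other 9 lines was left out, with an adjusted p of 0.0951 without A1693, 0.0713 without A1809, 0.105 without A1925, 0.0882 without A2441, 0.0681 without A3992, 0.0978 without A1081, 0.0883 without A1625, 0.112 without A2031 and 0.0846 without A2032. Quantile scaling (0.0548), a mean of at least 100 (0.0518) and edgeR (adjusted p = 0.133) also ended it. The summed level of the fibroblast and mesenchymal markers given above was likewise higher in KPCAf/f lines, and the part of these markers in this difference was not tested. After the correction for transcript length the log2 fold change was 2.53 (limma adjusted p = 0.00495). The overlapping gene Cdc20b on the opposite strand had 0 to 3.27 normalized counts in KPCAf/f lines and 0 to 0.947 in KPC lines.

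The other peroxidases did not pass the test. Per kilobase of the longest annotated transcript, the mean level over the 10 lines was 4912 normalized counts for Gpx4, 2533 for Gpx1, 568 for Gpx8, 55.2 for Gpx3 and 12.2 for Gpx2. Gpx1 ranged from 1471 to 3738 normalized counts in KPCAf/f lines and from 1313 to 5008 in KPC lines (log2 fold change 0.19, limma adjusted p = 0.823). Gpx4 ranged from 2518 to 6968 in KPCAf/f lines and from 2746 to 13479 in KPC lines, its highest value being that of A1620 (log2 fold change -0.52, limma adjusted p = 0.578). Gpx3 and Gpx2 were each highest in a single line. Gpx3 had 13.5, 120.3, 416, 21.4 and 82.8 in KPCAf/f lines, against 31.2, 10.6, 151, 21.2 and 12.4 in KPC lines, with A1925 the highest (limma adjusted p = 0.564). Gpx2, known from the gut epithelium as an NRF2 target, was too low to be tested, with 0, 340.5, 0, 1.12 and 12.3 in KPCAf/f lines, against 0.947, 1.32, 4.89, 17.9 and 8.25 in KPC lines. KPCAf/f line A1809 stood far above all others.

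Glutathione transferases attach glutathione to electrophiles. None of the 9 soluble members passed limma's test, with 2 positive and 7 negative fold changes and a median of -0.20. Many of the negative signs turned under other settings. Gsta3 turned to 0.74 by edgeR, Gstm1 to 0.32 without A1809 and Gstm5 to 0.13 with the length correction. Gsto1 turned to 0.082 under quantile scaling and Gstt1 to 0.57 without A2032. Without adjustment, 1 higher (Gstm2) and 1 lower (Gstp1) had a p under 0.05. DESeq2 called both of these genes. Gstm2 (chr3:107981702-107986453, minus strand), a mu class enzyme, had 621, 377, 342, 575 and 1854 normalized counts in KPCAf/f lines, against 17.0, 58.3, 20.5, 178 and 325 in KPC lines. The groups did not overlap, but A2032 with 325 nearly met A1925 with 342. The means were 754 ± 627 in KPCAf/f lines and 119.7 ± 132 in KPC lines, and the log2 fold change of 3.19 had an SE of 0.82 and an interval from 1.40 to 4.99 (limma adjusted p = 0.0885). Without A2032 Gstm2 passed (limma adjusted p = 0.0393). Apart from DESeq2 it passed under no other setting, with a limma adjusted p of 0.207 without A1620 and A1693. Gstm2 and Gstm1 lie in a cluster of similar genes on chromosome 3, so the split of reads among copies is uncertain. Gstm1 itself had 2259.6 normalized counts in A1693, 209 in A1809, 1974 in A1925, 1053 in A2441 and 2057 in A3992, against 502, 1257, 1217, 1455 and 5041 in the KPC lines, with wide overlap (log2 fold change -0.30, limma adjusted p = 0.865). The ratio of Gstm2 to Gstm1, a comparison chosen after the values were seen, was 0.173 to 1.81 in KPCAf/f lines and 0.0169 to 0.122 in KPC lines.

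Gstp1 (chr19:4035407-4037985, minus strand), the pi class enzyme, had 1233, 1212, 1566, 1183 and 1129 normalized counts in KPCAf/f lines, against 2005, 5697, 2342, 1508 and 2805 in KPC lines. Only A1925 among the KPCAf/f lines exceeded a KPC line, A2031, and A1620 was far above the rest. The log2 fold change was -1.04 with an SE of 0.31 (limma adjusted p = 0.146), and reads of Gstp1 and its near-identical neighbours Gstp2 and Gstp3 are uncertain. Gsta4, an alpha class enzyme known to conjugate the lipid peroxidation product 4-hydroxynonenal, had 416, 1523, 10223, 2787 and 18837 normalized counts in KPCAf/f lines, against 4288, 6554, 5472, 7173 and 13281 in KPC lines. The KPCAf/f lines thus held both the highest and the lowest level, and the genotypes overlapped (log2 fold change -1.09, limma adjusted p = 0.582). Gsta3 was low and spread even more widely, with 0.9, 36.0, 12.6, 2.25 and 265 in KPCAf/f lines, against 1.9, 15.9, 28.4, 76.0 and 68.0 in KPC lines (limma adjusted p = 0.841). Gstt1, a theta class gene, had 9.9, 93.3, 92.7, 24.7 and 135 in KPCAf/f lines, against 25.6, 14.6, 62.6, 51.4 and 329.9 in KPC lines, with no separation (limma adjusted p = 0.974). Gstt2 ranged from 26.1 to 271 in KPCAf/f lines and from 22.7 to 175 in KPC lines (log2 fold change 0.88, limma adjusted p = 0.574). Gstm5 ranged from 311 to 787 in KPCAf/f lines and from 552 to 1057 in KPC lines (log2 fold change -0.20, limma adjusted p = 0.765). Among the soluble transferases, Gstm2 was the only gene whose groups did not overlap.

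Gsto1, the omega class enzyme, had the highest mean level per kilobase of all members, 10274 normalized counts, and ranged from 4924 to 16982 in KPCAf/f lines and from 8617 to 21263 in KPC lines (log2 fold change -0.18, limma adjusted p = 0.838). Of the per-kilobase level of the 9 soluble transferases summed, Gsto1 made up 36.6% to 66.6% in KPCAf/f lines and 25.7% to 69.7% in KPC lines. Gsta4 made up 4.65% to 49.1% in KPCAf/f lines and 17.0% to 45.4% in KPC lines. The share of Gstm2 was small, 1.16% to 6.37% in KPCAf/f lines and 0.0620% to 1.02% in KPC lines, without overlap.

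The 3 membrane-bound transferases had negative fold changes with a median of -1.80, and 0 of the 3 passed the test by limma, edgeR, DESeq2 or limma-voom, with 1, Mgst3, at an unadjusted p under 0.05. These trimeric proteins of the endoplasmic reticulum and outer mitochondrial membrane reduce lipid peroxides, and Mgst2 can also make leukotriene C4. Mgst3 (chr1:167371966-167393841, minus strand) had 186, 276, 2509.9, 825 and 1293 normalized counts in KPCAf/f lines, against 1902, 4182, 2311, 1757 and 2184 in KPC lines. Of the KPCAf/f lines, A1925 alone reached the KPC range (log2 fold change -1.80, SE 0.63, limma adjusted p = 0.220). Mgst2 had 44.1, 139, 1044, 528 and 1366 in KPCAf/f lines, against 363, 2749, 1645, 1445 and 1912 in KPC lines, so that the groups overlapped through A1081 (log2 fold change -1.98, limma adjusted p = 0.346). Mgst1 had 2.7, 3.3, 331, 223 and 58.2 in KPCAf/f lines, against 17.99, 54.3, 28.4, 210.1 and 279 in KPC lines (limma adjusted p = 0.766). By edgeR and DESeq2 its log2 fold change turned to 0.085 and 0.068. Without A1620 and A1693 the limma log2 fold changes were -0.20 for Mgst1, -0.99 for Mgst2 and -1.13 for Mgst3. For all 3 genes the lowest levels were those of KPCAf/f lines A1693 and A1809.

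Neither the factor nor its sensor passed the test, nor did Nqo1 or Hmox1, and 0 of these 4 had an unadjusted p under 0.05. Nfe2l2 had 3402, 3243, 4589, 4779 and 7549 normalized counts in KPCAf/f lines, against 6517, 4287, 5393, 6200.1 and 9941 in KPC lines, with overlap and a log2 fold change of -0.47 whose interval ran from -1.09 to 0.15 (limma adjusted p = 0.464). Keap1 varied little, 1.89-fold over all 10 lines, from 1169 to 1708 in KPCAf/f lines and from 1048 to 1979 in KPC lines, with a log2 fold change of -0.17 and an interval from -0.65 to 0.31 (limma adjusted p = 0.731). The quinone reductase Nqo1, a widely used readout of NRF2, had 334, 142, 384, 83.2 and 489 normalized counts in KPCAf/f lines, against 157, 205, 194, 50.3 and 964 in KPC lines. Its highest and lowest values, 19.2-fold apart, both came from KPC lines, A2032 and A2031, and its log2 fold change was 0.25 with an interval from -1.36 to 1.87 (limma adjusted p = 0.884), and -0.12 by edgeR. The haem oxygenase Hmox1, which breaks down haem and answers to NRF2 and its repressor Bach1, had 1397, 2046, 2685, 2044 and 892 in KPCAf/f lines, against 598, 2079.7, 800.3, 222 and 1197 in KPC lines. KPC lines A1620 and A2032 lay within the KPCAf/f range, and the log2 fold change of 1.143 did not pass (limma adjusted p = 0.351).

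The 4 thioredoxin system genes reduce protein disulfides and peroxides: thioredoxin (Txn1), its NADPH-dependent reductase (Txnrd1), the peroxidase Prdx1 and sulfiredoxin (Srxn1), which repairs overoxidised peroxiredoxins. None passed the test, 0 had an unadjusted p under 0.05, and their median log2 fold change was -0.32. Txn1 ranged from 5446 to 9695 in KPCAf/f lines and from 6114 to 20892 in KPC lines (log2 fold change -0.67, limma adjusted p = 0.390). Txnrd1 varied 2.21-fold over all lines, from 3376 to 7460.1 in KPCAf/f lines and from 3802 to 6665 in KPC lines (log2 fold change -0.17, interval -0.71 to 0.36, limma adjusted p = 0.752). The reductases of the glutathione and thioredoxin systems can be set side by side within each line, a comparison chosen after the values were seen. The ratio of Gsr to Txnrd1 was 0.491, 0.747, 1.12, 0.790 and 0.457 in KPCAf/f lines, against 1.49, 2.86, 1.40, 0.947 and 1.57 in KPC lines, with A1925 and A2031 in overlap. Prdx1 ranged from 9333 to 20997 in KPCAf/f lines and from 12305 to 28165 in KPC lines (log2 fold change -0.47, limma adjusted p = 0.468). Srxn1 ranged from 692 to 2229.9 in KPCAf/f lines and from 662 to 1542 in KPC lines (log2 fold change 0.47, limma adjusted p = 0.550).

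Of the 5 pentose phosphate and NADPH genes 0 passed the test, with a median of -0.60 and 2 lower members, Tkt and Me1, at an unadjusted p under 0.05. G6pdx and Pgd carry out the NADPH-producing oxidative steps, Taldo1 and Tkt the reversible steps that exchange sugars with glycolysis, and Me1 makes NADPH from malate. Tkt, transketolase (chr14:30548359-30574720, plus strand), had 8911, 6080.2, 8848, 5760.3 and 10477 normalized counts in KPCAf/f lines, against 11751, 17603, 12638, 12000.1 and 14620.2 in KPC lines. Every KPCAf/f line lay under every KPC line. The means were 8015 ± 2024 in KPCAf/f lines and 13722 ± 2444 in KPC lines, a log2 fold change of -0.80 with an SE of 0.22 (limma adjusted p = 0.116). Me1 (chr9:86581371-86695953, minus strand) had 1259, 2897, 2955, 1487 and 3939 in KPCAf/f lines, against 6319.9, 3443, 4113, 4486 and 9257 in KPC lines. The groups overlapped through A3992 and A1620, and the log2 fold change was -1.18 with an SE of 0.37 (limma adjusted p = 0.161). Taldo1 ranged from 2359 to 3092 in KPCAf/f lines and from 2512 to 7989 in KPC lines (log2 fold change -0.60, limma adjusted p = 0.348). The oxidative enzymes had fold changes nearer 0: Pgd had a log2 fold change of -0.25 (limma adjusted p = 0.692), and G6pdx 0.15 with an interval from -0.35 to 0.66 (0.774). G6pdx averaged 3501 ± 920 in KPCAf/f lines and 3127 ± 719 in KPC lines. It lies on the X chromosome and overlaps Ikbkg, which had 1003 to 2278 normalized counts in KPCAf/f lines and 1409.6 to 3081 in KPC lines, and their reads are uncertain since the strand setting of the counting is not given.

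**Figure D3:**
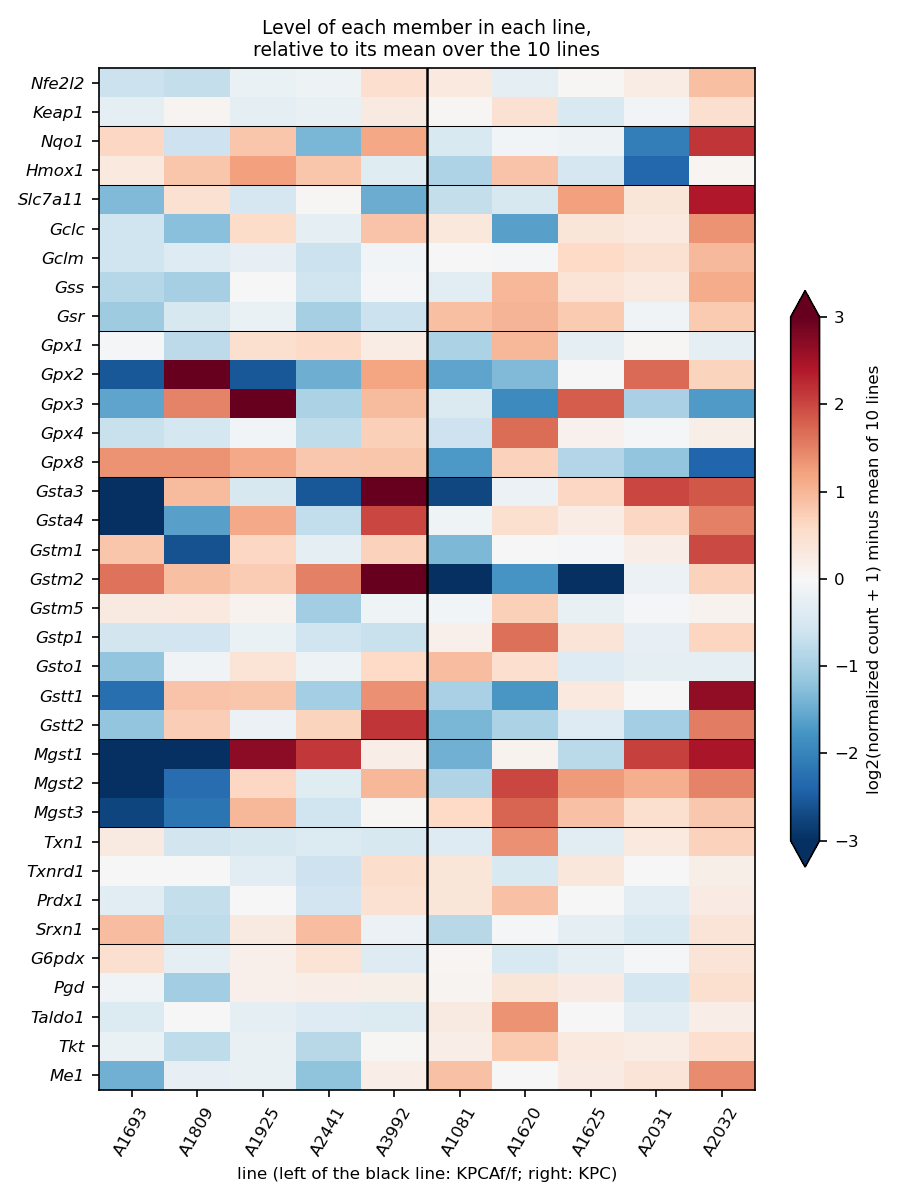
The colour of each cell gives log2(normalized count + 1) of a member in a line minus the member's mean over the 10 lines, for all 35 members by branch, with KPCAf/f lines left and KPC lines right. A2032 is red for most NRF2 and glutathione supply genes, and A1693 and A1809 are dark blue for the membrane-bound transferases.

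Many members differed widely between lines of the same genotype. Between the highest and the lowest line of a genotype, Gsta3 differed 295-fold among KPCAf/f lines and 40.1-fold among KPC lines, and Mgst1 123-fold among KPCAf/f lines and 15.5-fold among KPC lines. Gsta4 differed 45.3-fold among KPCAf/f lines and 3.10-fold among KPC lines, and Gstm2 5.43-fold among KPCAf/f lines and 19.1-fold among KPC lines. G6pdx differed 1.82-fold among KPCAf/f lines and 1.79-fold among KPC lines. The KPC lines A1620 and A2032 were each the highest line for 11 of the 34 tested members, and the members were different ones. In A2032 they were Nfe2l2, Keap1, Nqo1, Slc7a11, Gclc, Gclm, Gss, Gstm1, Gstt1, Pgd and Me1. In A1620 they were Gsr, Gpx1, Gpx4, Gstm5, Gstp1, Mgst2, Mgst3, Txn1, Prdx1, Taldo1 and Tkt. The longest annotated transcripts had a median of 1097 bases for the members highest in A1620, against 2475 bases for the other members. For those highest in A2032 it was 3292 bases, against 1362 bases for the other members. The part of transcript length, and of the slope given above for A1620, in these patterns was not tested. KPCAf/f line A1693 was the lowest line for 10 members and A1809 for 6. The 35 members together took 0.443% to 0.786% of all normalized counts in KPCAf/f lines and 0.578% to 0.872% in KPC lines.

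Covariation with Nqo1 was examined over the 10 lines for 18 members, the factor, its sensor and genes known as NRF2 targets. Pearson's r was positive for all 18, from 0.04 for Mgst1 to 0.59 for Gstm1, with a median of 0.30, and none passed after adjustment over the 18 relations. For Gstm1, r was 0.59 (permutation p = 0.0716, adjusted 0.649) and Spearman's rho 0.75 (permutation p = 0.0174, adjusted 0.314), both two-sided. After centring each genotype on its own mean, r ranged from 0.07 to 0.68, the highest being that of Tkt, and again none passed in an exact test over permutations within genotypes. Without the 2 lines farthest from the median of Nqo1, r ranged from -0.60 for Slc7a11 to 0.64 for Gstm1 and was positive for 13 members, so that the positive sign of the other 5 rests on those lines, A2031 and A2032. The lines share depth scaling and genotype, and no relation was called.

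**Figure D4:**
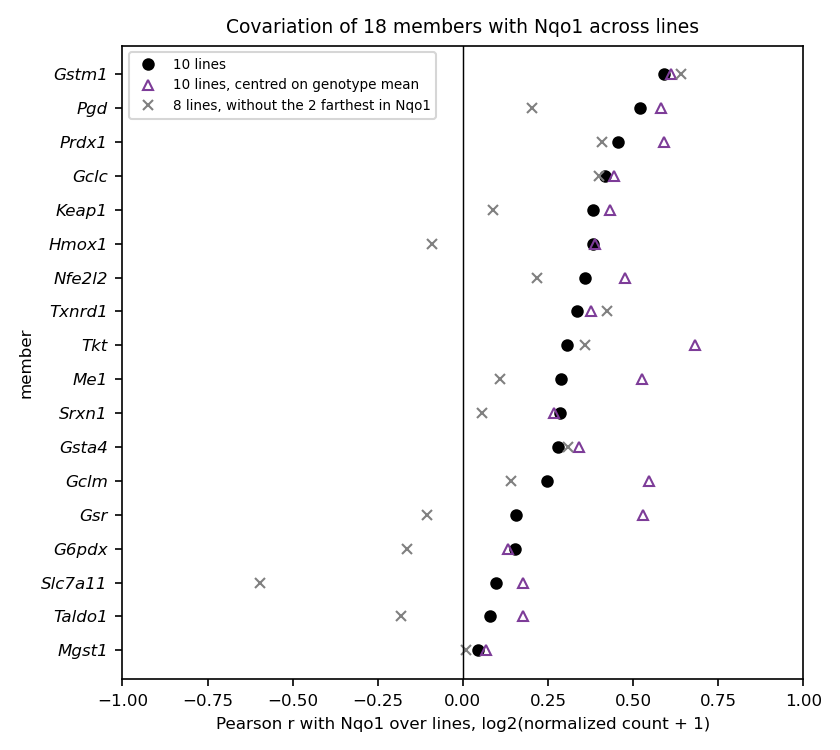
Pearson's r with Nqo1 over lines is plotted for 18 members over all 10 lines (circles), after centring on the genotype mean (triangles) and without the 2 lines farthest in Nqo1 (crosses). All circles lie right of 0, from 0.04 to 0.59, and the cross of Slc7a11 lies at -0.60.

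A wider list of 95 other genes of oxidant defence, glutathione, thioredoxin and NADPH metabolism held 85 tested genes, of which 3 rose and 0 fell (3.53%, beside 1.75% of all genes). The median log2 fold change was -0.15. Without adjustment 7 were higher and 7 lower, together 16.5% beside 14.6% of all genes. DESeq2 called 4 higher (it called 5.58% of all genes in either direction), edgeR 3 (1.31%) and limma-voom 2 (0.802%), each with 0 lower. Bach2, a transcriptional repressor that pairs with small Maf proteins at elements related to those of NRF2, averaged 80.4 ± 40.7 normalized counts in KPCAf/f lines and 4.36 ± 3.3 in KPC lines, a log2 fold change of 3.99 with an SE of 0.57 (limma adjusted p = 0.0039). It was under 10 in every KPC line, so it could be tested only because every KPCAf/f line reached 10, from 38.2 to 135. The filter thus admitted Bach2 through the group where it is high, and its call is counted in the 3.53% above. Glrx, glutaredoxin, which removes glutathione from proteins, averaged 498 ± 143 in KPCAf/f lines and 126 ± 48.4 in KPC lines (log2 fold change 2.01, SE 0.33, limma adjusted p = 0.00919). Gstk1, the kappa class transferase of mitochondria and peroxisomes, averaged 228 ± 139.9 in KPCAf/f lines and 37.5 ± 11.8 in KPC lines (log2 fold change 2.39, SE 0.48, limma adjusted p = 0.0328). Its call was lost by limma-voom (0.0938), with a mean of at least 100 (0.0557), and when any of 7 lines was left out: A1925 (0.0924), A2441 (0.0718), A3992 (0.0585), A1081 (0.0739), A1625 (0.0827), A2031 (0.0679) or A2032 (0.0711). Sod1, the cytosolic superoxide dismutase, was lower in every KPCAf/f line, 3497 ± 529 against 7293 ± 4752 in KPC lines, but did not pass (log2 fold change -0.89, limma adjusted p = 0.243). KPC line A1620 had 15585.5, against 4272.6 to 6977.6 in the other KPC lines, and A1625 with 4272.6 nearly met A3992 with 4152.5. Groups did not overlap for 3 higher and 1 lower of the 85 tested genes, together 4.71% beside 4.53% of all genes. Osgin1, another known NRF2 target, averaged 1050.1 ± 1142 in KPCAf/f lines and 3809.9 ± 2576 in KPC lines (log2 fold change -2.41, limma adjusted p = 0.151). It passed without A1809 (limma adjusted p = 0.0359) but under no other setting, with 0.295 without A1620 and A1693. Sesn3, a stress-response sestrin, averaged 1796 ± 746 in KPCAf/f lines and 699 ± 333 in KPC lines (log2 fold change 1.42, limma adjusted p = 0.156). It was called by DESeq2 (adjusted p = 0.037) but under no other setting, with a limma adjusted p of 0.283 without A1925. Me2, the mitochondrial malic enzyme, averaged 2083 ± 397 in KPCAf/f lines and 3100.3 ± 589.7 in KPC lines (log2 fold change -0.57, limma adjusted p = 0.198), and catalase (Cat) had a log2 fold change of 0.09 (limma adjusted p = 0.874).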

How the data were processed

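The deposited table holds, as a signal per gene and line, the counts that the authors divided by DESeq2 size factors. Per the labels' protocols, RNA was isolated with an RNeasy kit and made into libraries with a TruSeq Stranded mRNA kit. Reads were handled with STAR 2.5.2b, Trimmomatic 0.36, bcl2fastq 1.8.4, featureCounts (in Subread 1.5.0p3) and, under R 3.3.2, DESeq2 1.14.1, per the submitters' processing notes. The notes name GRCm38.p5 and mm9 with no role. Which annotation and strand setting were used for counting is not given in the sources used. Reads of overlapping genes and near-identical copies are therefore uncertain.

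Dividing each line by its value per read gave whole reads (tolerance 0.001 read) in 100.0% of cases. Genotypes were compared on log2(normalized count + 1) by a two-sided moderated test in limma 3.58.1 (trend on mean level, R 4.3.3), with Benjamini-Hochberg adjustment over 13089 genes. The test was also run on simulated data, and the outcome is not given here. Other settings were pseudocounts of 0.5 and 5, no filter, a mean of at least 100, TMM and quantile scaling, the recovered reads tested with DESeq2 1.42.0, edgeR 4.0.16 and limma-voom, a correction for transcript length, each line left out, and A1620 and A1693 left out together. DESeq2, edgeR and limma-voom p-values are adjusted in the same way. Correlations used 100000 permutations, or all 14400 within genotypes.

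All 35 members are accounted for. Values in each line are given for members with an unadjusted p under 0.05 or a 16-fold range reaching 100. They are also given for Nfe2l2, Hmox1, Slc7a11 and Gclc, chosen after their values were seen. Genes of the wider list are named when called, and otherwise up to 3 per subgroup were eligible by smallest p. The members and lists were chosen with earlier results of these data known. Positions and transcript lengths come from GENCODE M21 (GRCm38), promoters from RefSeq (GRCm38.p6). Cdc20b, Ikbkg, the Y-linked genes, Xist and the ratios were looked up after the values were seen. Each genotype had 5 lines, and the labels give no batch or date.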

Additional observations from a re-analysis of the deposited data

Results flagged for a closer look

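On the log2 scale, 4 of 70 groups of 5 lines had a line far from the other 4 by Dixon's test, and chance gives about 1 in 20. Gsr was lowest in KPC line A2031, at 4975 normalized counts, against 9181 to 10853 in the other KPC lines. Gstp1 was highest in KPCAf/f line A1925, at 1566, against 1129 to 1233 in the other KPCAf/f lines. Txn1 was highest in KPCAf/f line A1693, at 9695, against 5446 to 6086 in the others. Pgd was lowest in KPCAf/f line A1809, at 2586, against 4968 to 6058 in the others.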

How the results depend on the processing

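No paired analysis was possible because the labels give line names and no replicate numbers shared between genotypes. Over all genes, 178 higher and 51 lower calls became 109 and 22 with a mean of at least 100, 521 and 210 by DESeq2, 76 and 29 by limma-voom, 27 lower by edgeR, and 122 to 227 higher and 24 to 91 lower with 1 line left out. Of the members, 1 called higher became 0 with a mean of at least 100, quantile scaling or edgeR, 2 by DESeq2 and 0 to 1 with 1 line left out. The 1 called lower became 5 by DESeq2, 2 with the length correction, 0 without A1620 and A1693, and 0 to 1 with 1 line left out. DESeq2 called Gclm, Gpx8, Gsr, Gss, Gstm2, Gstp1 and Tkt. In the wider list, 3 higher became 1 with a mean of at least 100, and 0 lower became 0 to 1 with 1 line left out. Arid1a passed after the length correction (-0.83, adjusted p = 0.0461). The median log2 fold change of the members stayed between -0.55 and -0.27 with 1 line left out. Of 1023 values for 49 genes under 21 other settings, 957 kept direction and side of the threshold, 27 lost and 9 gained a call, and 30 turned direction, the last with adjusted p of at least 0.753. The 49 are the tested members and the wider-list genes called or eligible by smallest p, of which some are not named above. By edgeR and DESeq2, Nqo1 turned to -0.12 and -0.14, Gsta3 to 0.74 and 0.73, and Mgst1 to 0.085 and 0.068. The length correction turned Gstm5 to 0.13, Gsto1 to 0.12 and Gstt1 to 0.23, and quantile scaling turned Gsto1 to 0.082. Without A1620 and A1693, Gsto1 turned to 0.20, Gstt1 to 0.019, G6pdx to -0.049 and Cat to -0.0089. With 1 line left out, the range was -0.24 to 0.82 for Nqo1, -0.72 to 0.016 for Gclc, -0.024 to 0.46 for Gpx1, -1.67 to 0.11 for Gsta3, -0.67 to 0.32 for Gstm1, -0.30 to 0.032 for Gstm5, -0.35 to 0.094 for Gsto1, -0.54 to 0.57 for Gstt1 and -0.047 to 0.19 for Cat. The cause of these changes was not tested. Gpx2, Gsta3, Gstt1 and Mgst1 had lines under 10 normalized counts, where few reads limit the precision.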
